A study of Mus musculus with 3 samples.

Results

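Haematopoietic niche factors and angiopoietins were followed by the UMIs of 10 genes, *Cxcl12*, *Kitl*, *Il7*, *Vcam1*, *Angpt1*, *Angpt2*, *Tek*, *Tie1*, *Thpo* and *Flt3l*, chosen by gene symbol out of 55422 genes listed in the files. The question was which stromal, osteoblast and endothelial subtypes of the young mouse long bone carried the transcripts of each factor. Single cell RNA sequencing (3′ droplet libraries with molecular barcodes, UMIs) was done on bone cells of untreated 3-week-old C57BL/6 mice (by the study's methods C57BL/6J for the wild-type animals). In 2 metaphyseal libraries, replicates 1 and 2, cells of the dissected metaphysis of wild-type males were depleted of lineage-positive, CD45+ and CD117+ cells with beads. Endothelial and stromal cells therefore remained, while most haematopoietic cells and cells with surface KIT were removed. In 1 Pdgfra-GFP library, cells from the metaphysis-epiphysis region of femur and tibia were sorted for GFP. The donors were males heterozygous for a knock-in that puts a nuclear GFP under control of the *Pdgfra* locus. In every such cell 1 *Pdgfra* allele is therefore replaced, and cells without *Pdgfra* promoter activity should be left out. The labels do not say that the metaphyseal replicates came from separate animals, and the Pdgfra-GFP preparation had no replicate. In the tests, shifts common to all populations of a library were taken out. The p-values therefore measure the remaining spread of the population sums over these 3 libraries, which may be technical.

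Blood-forming cells depend on secreted and membrane-bound signals from neighbouring cells. CXCL12 is a chemokine that holds stem cells, B-cell precursors and other CXCR4+ cells in the marrow, Kit ligand (stem cell factor, *Kitl*) keeps KIT+ stem and progenitor cells alive, IL-7 is required by B-cell precursors, and VCAM1 is an adhesion molecule bound by the integrin VLA-4. Thrombopoietin (*Thpo*) and FLT3 ligand (*Flt3l*) act on stem cells, megakaryocytes and lymphoid progenitors, and thrombopoietin in the circulation comes mainly from liver. Angiopoietin-1 (*Angpt1*) activates the endothelial receptor TIE2 (*Tek*), angiopoietin-2 (*Angpt2*) can block it, and TIE1 is a related orphan receptor that forms complexes with TIE2. In adult marrow, perivascular stromal cells with leptin receptor, also called CXCL12-abundant reticular cells, are the best known source of CXCL12 and Kit ligand.

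The genes lie apart in the mouse genome (GRCm38, the mm10 build of the files): *Cxcl12* at chr6:117168535-117181367 (+), *Kitl* at chr10:100015630-100100416 (+), *Il7* at chr3:7569994-7613760 (-), *Vcam1* at chr3:116109949-116129688 (-), *Angpt1* at chr15:42424723-42676977 (-), *Angpt2* at chr8:18690263-18741562 (-), *Tek* at chr4:94739289-94874976 (+), *Tie1* at chr4:118471191-118490061 (-), *Thpo* at chr16:20724454-20734511 (-) and *Flt3l* at chr7:45129788-45136432 (-). The antisense genes *Gm16685*, *Gm43109* and *Gm17473* overlap *Il7*, *Vcam1* and *Angpt1*, and the protein-coding genes *Mcph1* and *Chrd* overlap *Angpt2* and *Thpo* on the other strand. Whether counting used strand is not given in the sources used here, so the counts of these 5 genes may include reads of their partners and are uncertain to that extent. *Gm45713* overlaps *Flt3l* on the same strand, so the *Flt3l* counts are uncertain too. The 3′ tags cannot tell the isoforms of *Cxcl12* apart, nor the membrane-bound and soluble forms of *Kitl*.

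The promoters of 4 members with an entry in the RefSeq table are shown, the TIE receptors, both high in endothelial cells, and the ligands *Cxcl12* and *Kitl*, both high in marrow stroma, as the 250 bases before the RefSeq start (GRCm38.p6, 5′ to 3′ along the gene). Capitals mark a form of ETS motif, the letters CAGGAA read on either strand. ETS factors bind sites of this and other forms in many endothelial genes. The other forms were not searched, so a window without capitals may still hold an ETS site.
*Tek* promoter, chr4:94739039-94739288 (+): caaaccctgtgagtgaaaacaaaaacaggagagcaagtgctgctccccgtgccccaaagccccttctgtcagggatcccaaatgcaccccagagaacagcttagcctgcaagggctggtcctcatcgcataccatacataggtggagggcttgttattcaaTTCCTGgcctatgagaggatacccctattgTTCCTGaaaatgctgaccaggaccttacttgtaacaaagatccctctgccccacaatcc
*Tie1* promoter, chr4:118489850-118490099 (-): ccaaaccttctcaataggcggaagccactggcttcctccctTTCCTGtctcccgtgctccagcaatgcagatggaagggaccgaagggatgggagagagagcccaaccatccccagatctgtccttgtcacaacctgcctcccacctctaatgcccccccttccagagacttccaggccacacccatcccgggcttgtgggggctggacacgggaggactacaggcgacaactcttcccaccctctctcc
*Cxcl12* promoter, chr6:117168285-117168534 (+): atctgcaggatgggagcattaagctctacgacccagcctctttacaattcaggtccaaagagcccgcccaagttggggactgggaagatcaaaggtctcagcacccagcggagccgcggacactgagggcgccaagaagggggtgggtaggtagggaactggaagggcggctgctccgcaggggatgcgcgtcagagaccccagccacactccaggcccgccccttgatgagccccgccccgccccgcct
*Kitl* promoter, chr10:100015571-100015820 (+): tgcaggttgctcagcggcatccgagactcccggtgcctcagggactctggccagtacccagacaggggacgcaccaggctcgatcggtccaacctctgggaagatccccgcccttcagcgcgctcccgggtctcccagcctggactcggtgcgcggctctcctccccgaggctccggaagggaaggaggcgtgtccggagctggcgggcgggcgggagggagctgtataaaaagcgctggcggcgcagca
The *Tek* window held these letters 89 and 59 bases before the RefSeq start and the *Tie1* window 209 bases before it. Neither the *Cxcl12* nor the *Kitl* window held them. The same letters occurred in 25.7% of 32851 promoter windows of this length. The palindromic EBF motif, searched on both strands because EBF factors are made by marrow stroma, occurred in 0.779% of the windows and in none of these 4. The *Tie1* and *Kitl* windows overlap the genes at the Gencode positions given above, since their RefSeq starts lie inside them. The marked *Tie1* letters fall inside the gene by those positions. The matches describe the sequence only. *Thpo* and *Flt3l* had entries and are not shown. A *Thpo* window, chr16:20730599-20730848 (-), held the ETS letters 106 bases before its start. The other *Thpo* window and the *Flt3l* window did not hold them. *Il7*, *Vcam1*, *Angpt1* and *Angpt2* had no entry.

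The libraries held 25243314, 22082735 and 91747759 UMIs (metaphyseal replicates 1 and 2, Pdgfra-GFP), and 2389, 2011 and 11319 cells passed the study's limits on genes, mitochondrial and ribosomal reads, with medians of 6257, 6458 and 5354 UMIs per cell. Clusters were made without the 10 genes and the pathway genes below and were named from marker genes: diaphyseal stromal cells of the marrow (dpMSC-like, 702, 651 and 4138 cells), metaphyseal stromal cells (mpMSC-like, 92, 86 and 1457), septoclasts (SC-like, 20, 14 and 243), osteoblasts (OB-like, 150, 142 and 1511), mural cells (mural-like, 16, 17 and 68), and arterial, metaphyseal and bone marrow endothelial cells (aEC-like, 109, 84 and 112; mpEC-like, 524, 424 and 86; bmEC-like, 397, 312 and 88). All 6 dpMSC, all 5 mpMSC, all 6 SC and all 5 OB markers were raised in those clusters, whereas the mpEC and bmEC names rested on 2 to 4 raised markers of 4. The words diaphyseal and metaphyseal follow markers and the study's terms, since the tissue was dissected from the metaphysis or metaphysis-epiphysis region. Endothelial cells were present in the Pdgfra-GFP library in spite of the sort, as 2.77% of its cells against 46.8% and 44.0% in the metaphyseal replicates. The metaphyseal replicates shared 0 cell barcodes, and they shared 9 and 10 with the Pdgfra-GFP library, where chance would give 3.98 and 3.35. Droplets of up to 100 UMIs, which hold free RNA, contained *Cxcl12* at 5677, 5494 and 5546 CPM (counts scaled to a total of 1e+06 UMIs), *Vcam1* at 811, 749 and 543, *Kitl* at 335, 342 and 141, and *Tek* at 141, 136 and 3.76. Levels are given in this order of libraries throughout, and each UMI counts 1 molecule, so CPM is not scaled by gene length.

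**Figure D1:**
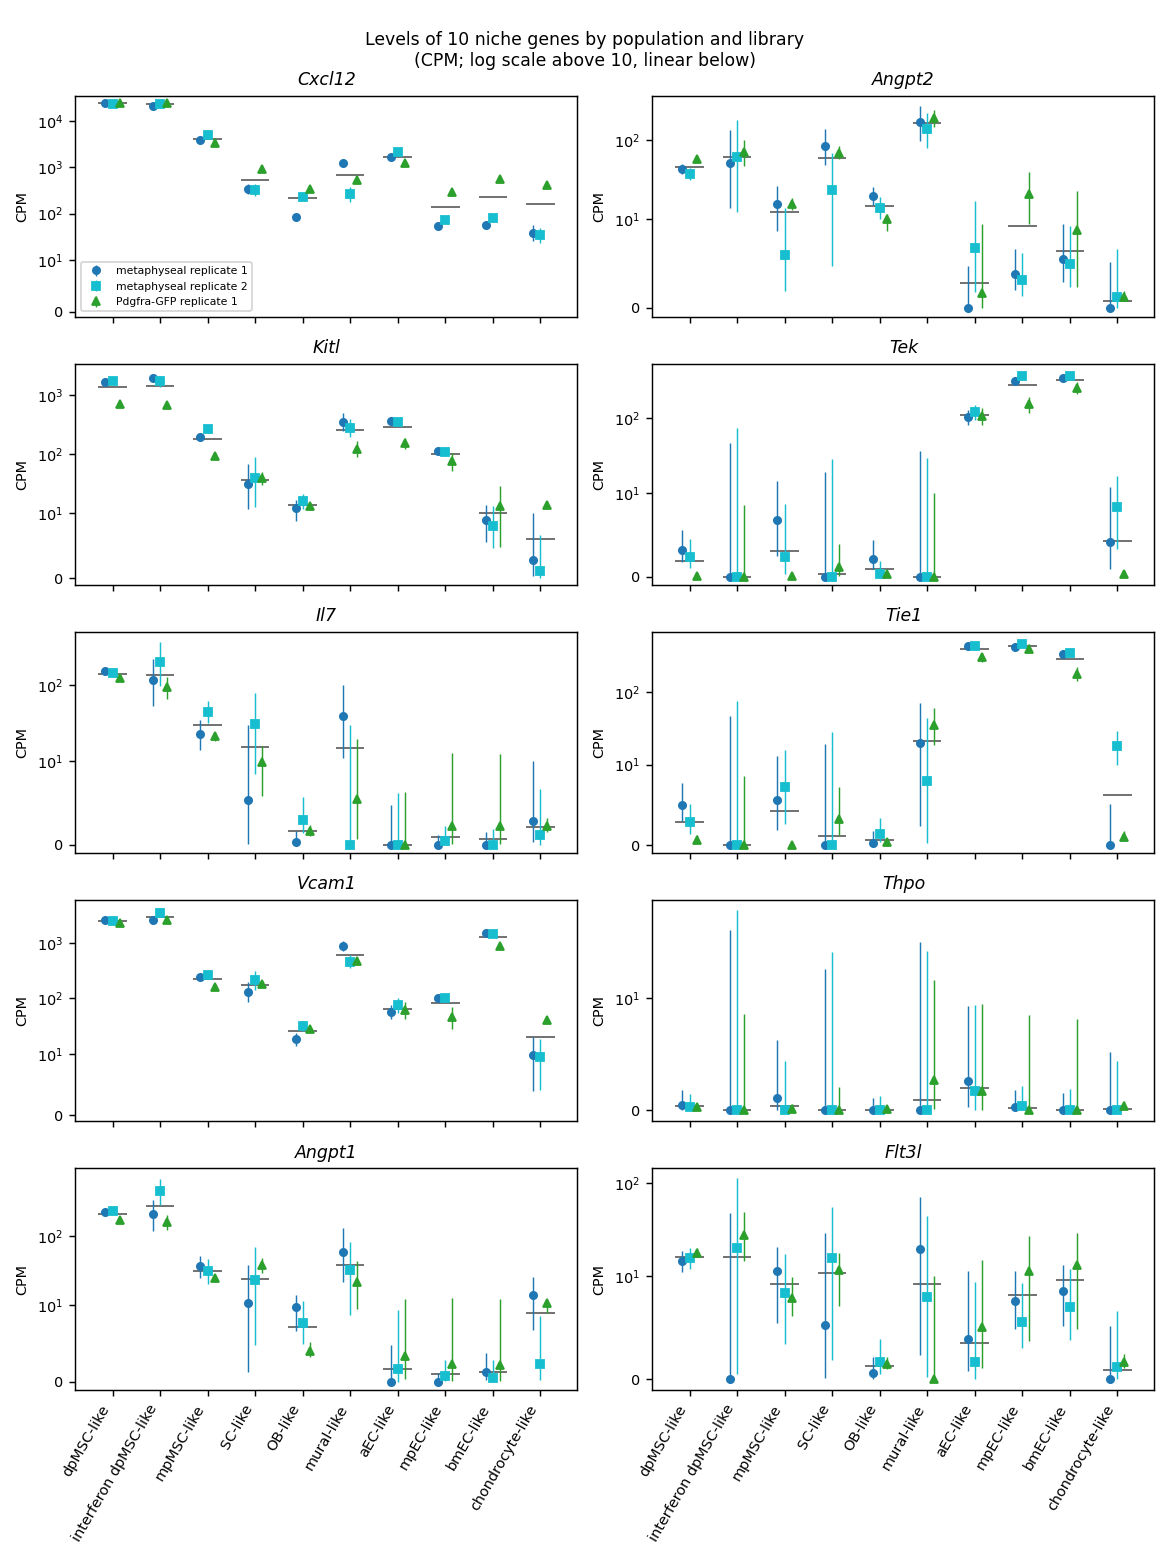
CPM (y axis, logarithmic above 10 and linear below) of each of the 10 genes in 10 populations (x axis); points are the 3 libraries, vertical lines exact Poisson intervals at the 95% level for counting error only, and horizontal lines the means. *Cxcl12*, *Kitl*, *Il7*, *Vcam1* and *Angpt1* were high in the dpMSC-like cells, *Angpt2* was highest in mural-like cells, and *Tek* and *Tie1* were high in the 3 endothelial subtypes.

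*Cxcl12* was the most abundant of the 10 genes in the dpMSC-like cells and was found in 100% of them in every library. Its level there was 23875, 23398 and 24013 CPM (mean 23762 ± 323, SD, n = 3 libraries). The mpMSC-like cells held 3863, 4978 and 3265 CPM, with a UMI in 90.2%, 91.9% and 94.4% of cells. The aEC-like cells came next among the endothelial and stromal groups, at 1682, 2104 and 1243 CPM and in 95.4%, 92.9% and 92.0% of cells. The ranges of these 3 populations did not overlap, in the order dpMSC-like, mpMSC-like, aEC-like. Erythroid-like cells held 3014 to 6499 CPM over the libraries, overlapping the mpMSC-like range and above the aEC-like range. Of the other blood cells, neutrophil-like cells held 1381 to 2584 CPM and B-lineage-like cells 541 to 1940 CPM. Macrophage-like cells, in 2 libraries, held 39.2 to 546 CPM. The OB-like cells, which make bone matrix, held 84.4, 228 and 333 CPM, and SC-like cells, which resorb cartilage at the growth plate, held 338, 325 and 914 CPM. Mural-like cells held 1242, 264 and 540.3 CPM, and the first value came from 126 UMIs in 31.2% of 16 cells. In erythroid-like cells, which should lack *Cxcl12*, 62.5%, 54.5% and 83.8% of cells had a UMI, at medians of 10052, 10662 and 7558 UMIs per cell. The shares of OB-like cells with a UMI (51.3%, 54.2% and 86.3%) and of bmEC-like cells (24.2%, 36.5% and 69.3%) were near or below these. They are not read as expression, and the part of free RNA in any of these cells was not tested.

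*Kitl* was also highest in the dpMSC-like cells, at 1665, 1724 and 697 CPM (1362 ± 576, n = 3), apart from the few interferon-response cells of that class (1460 ± 678, n = 3), whose range overlapped theirs. The metaphyseal libraries lay close to each other and the Pdgfra-GFP library lay well below both. The mean of the metaphyseal replicates was 2.43 times the Pdgfra-GFP value in dpMSC-like cells, 2.51 times in mpMSC-like cells, 2.58 times in mural-like cells and 2.31 times in aEC-like cells, but 1.07 times in OB-like cells. This difference between preparations was not tested, since one of them is a single library. Beside it, *Kitl* in the free RNA of the metaphyseal libraries was also above that of the Pdgfra-GFP library, and the part of free RNA was not tested. The aEC-like cells held 363, 352 and 155 CPM, mural-like cells 355, 279.9 and 123 CPM, and mpMSC-like cells 197, 264 and 91.7 CPM, and these 3 ranges overlapped. The mpEC-like cells held 114, 109.9 and 75.7 CPM, SC-like cells 31.7, 38.7 and 39.0 CPM, OB-like cells 12.2, 15.7 and 13.1 CPM and bmEC-like cells 8.94, 8.03 and 13.3 CPM. The marrow endothelium was therefore the population with the least *Kitl* of the 3 endothelial subtypes in every library. A *Kitl* UMI was seen in 82.6%, 78.6% and 42% of aEC-like cells, 35.1%, 35.6% and 25.6% of mpEC-like cells and 5.04%, 5.13% and 5.68% of bmEC-like cells, at medians of 6464, 6837 and 4271, of 5704, 5757 and 4631 and of 5625, 6104 and 4896 UMIs per cell. In the deeper erythroid-like cells, which should lack *Kitl*, 43.8%, 27.3% and 32.5% of 16, 11 and 80 cells had a UMI. Their level, 138 to 480 CPM over the libraries, overlapped those of aEC-like, mural-like and mpMSC-like cells. The other blood cells held less, neutrophil-like cells 73.6 to 120 CPM, B-lineage-like cells 41.9 to 72.3 and macrophage-like cells 0 to 13.9. The share of mpEC-like cells lay above that of erythroid-like cells in metaphyseal replicate 2 alone. It lay above that of bmEC-like cells, of like depth, in every library. The part of free RNA in these shares was not tested. With each cell thinned to 2000 UMIs, 94.9%, 94.5% and 72.0% of dpMSC-like cells had a *Kitl* UMI, against 99.7%, 99.2% and 87.7% unthinned.

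*Il7* was a stromal transcript, far below *Cxcl12* and *Kitl* in level. The dpMSC-like cells held 152, 144 and 123 CPM (139.9 ± 14.8, n = 3), with a UMI in 51.0%, 49.3% and 34.4% of cells. The mpMSC-like cells held 22.6, 44.4 and 21.2 CPM, below the dpMSC-like cells in each library, and OB-like cells held 0.305, 3.01 and 1.62 CPM from 1, 9 and 29 UMIs. Free RNA held *Il7* at 25.6, 32.4 and 28.1 CPM and erythroid-like cells at 6.47 to 49.2 CPM, both overlapping the mpMSC-like range. Neutrophil-like cells held 5.52 to 12.7 CPM, B-lineage-like cells 0 to 4.77 and macrophage-like cells 0 to 0.771. The part of free RNA was not tested. In endothelial cells *Il7* was close to absent at this depth. The aEC-like cells had 0 UMIs in all 3 libraries, which allows up to 3.33%, 4.30% and 3.24% of cells with a UMI (exact binomial limits, which do not bound the share of cells that express the gene), and the bmEC-like and mpEC-like cells had 3 UMIs between them.

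*Vcam1* was shared by stroma and one endothelial subtype. The dpMSC-like cells held 2605, 2563 and 2306 CPM (2491 ± 161, n = 3) and the bmEC-like cells 1539, 1481 and 889.9 CPM (1303 ± 359). The bmEC-like cells lay below the dpMSC-like cells and above the mural-like, mpMSC-like, SC-like, OB-like, mpEC-like and aEC-like cells in each library, and 93.7%, 90.7% and 86.4% of them had a UMI. Mural-like cells held 887, 464 and 478 CPM, mpMSC-like cells 246, 268 and 161 CPM, SC-like cells 132, 217 and 186 CPM, mpEC-like cells 102, 102 and 45.9 CPM, aEC-like cells 57.9, 75.8 and 61.1 CPM and OB-like cells 18.3, 32.4 and 27.7 CPM. The ranges of mpMSC-like and SC-like cells overlapped, as did those of mpEC-like and aEC-like cells. In erythroid-like cells 43.8%, 36.4% and 38.8% had a UMI. Their level, 442 to 911 CPM over the libraries, overlapped the ranges of mural-like and bmEC-like cells. The other blood cells held less, neutrophil-like cells 87.2 to 270 CPM, B-lineage-like cells 88.0 to 181 and macrophage-like cells 9.05 to 294. The shares of mpEC-like cells (19.8%, 19.6% and 19.8%) and aEC-like cells (25.7%, 21.4% and 25%) did not exceed those of erythroid-like cells. The part of free RNA was not tested.

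*Angpt1* and *Angpt2* differed in the cells where they were highest. *Angpt1*, the TIE2 agonist, was highest in dpMSC-like cells at 219, 229.5 and 172 CPM (207 ± 30.8, n = 3), apart from the few interferon-response cells of that class. The mpMSC-like cells held 36.2, 31.2 and 24.3 CPM, mural-like cells 59.1, 32.0 and 21.8 CPM, SC-like cells 10.6, 23.2 and 37.9 CPM and OB-like cells 9.75, 7.68 and 4.08 CPM. Free RNA held *Angpt1* at 47.9, 46.1 and 32.8 CPM, above the mpMSC-like level in each library. Erythroid-like cells held 20.8 to 73.9 CPM, neutrophil-like cells 11.1 to 23.8, B-lineage-like cells 8.38 to 21.1 and macrophage-like cells 0 to 3.85. The part of free RNA was not tested. *Angpt2* was highest in mural-like cells at 168, 136 and 188 CPM (164 ± 26.4, n = 3), with a UMI in 56.2%, 58.8% and 45.6% of cells, and no other population reached this range. SC-like cells held 84.5, 23.2 and 69.3 CPM from 16, 3 and 126 UMIs, and dpMSC-like cells 43.1, 37.5 and 57.7 CPM, overlapping ranges. OB-like cells held 19.8, 14.0 and 10.1 CPM and mpMSC-like cells 15.8, 6.00 and 15.6 CPM, also overlapping. Free RNA held *Angpt2* at 17.2, 14.2 and 18.4 CPM, within reach of both ranges. Both angiopoietins were low in endothelial cells, where *Angpt1* reached at most 3.40 CPM and *Angpt2* at most 20.6 CPM in the aEC-like, mpEC-like and bmEC-like cells of any library.

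*Tek* and *Tie1* marked all endothelial subtypes, in different orders of mean CPM. *Tek* was at 344, 364 and 255 CPM in bmEC-like cells (321 ± 58.2, n = 3), 318, 362 and 154 CPM in mpEC-like cells and 103, 121 and 107 CPM in aEC-like cells (110.4 ± 9.64). The aEC-like cells were lowest in every library. *Tie1* was at 425, 462 and 399 CPM in mpEC-like cells, 427, 433 and 304 CPM in aEC-like cells and 334, 346 and 177 CPM in bmEC-like cells, and here bmEC-like cells were lowest in every library. However, *Tie1* was not called between any pair of these subtypes. Its adjusted p by edgeR was 0.488 (aEC-like against bmEC-like), 0.396 (mpEC-like against bmEC-like) and 0.882 (aEC-like against mpEC-like). Mural-like cells had 0 *Tek* UMIs in all libraries and 2, 1 and 13 *Tie1* UMIs. In dpMSC-like cells *Tek* was at 3.24, 2.36 and 0.126 CPM and *Tie1* at 4.98, 2.89 and 0.694 CPM, lower in the Pdgfra-GFP library, whose free RNA also held less of both.

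*Flt3l* and *Thpo* were scarce. *Flt3l* was at 14.5, 15.7 and 17.9 CPM in dpMSC-like cells (16 ± 1.75, n = 3), with a UMI in 7.98%, 8.91% and 6.45% of cells. It was at 8.52, 7.03 and 13.3 CPM in bmEC-like cells, 7.63, 5.53 and 11.5 CPM in mpEC-like cells, 11.3, 8.40 and 7.87 CPM in mpMSC-like cells and 0.610, 1.67 and 1.51 CPM in OB-like cells. Free RNA held *Flt3l* at 9.77, 15.1 and 7.52 CPM, overlapping the ranges of dpMSC-like, bmEC-like, mpEC-like and mpMSC-like cells. Its part in these levels was not tested. *Thpo* gave 6, 3 and 35 UMIs in all kept cells. It did not pass the filter on low counts, and 9 of the 10 genes were tested. The aEC-like cells had 2, 1 and 1 *Thpo* UMIs. In the Pdgfra-GFP library 8 of 368 fibroblast-like cells had one (2.17%, exact 95% binomial interval 0.943% to 4.24%), and a cluster of 338 cells led by *Thbs4*, *Tnmd* and *Prg4*, which met no list of markers, held 12 *Thpo* UMIs, or 6.06 CPM (exact Poisson interval 3.13 to 10.6). The free RNA of that library held *Thpo* at 0.903 CPM (0.331 to 1.97). The metaphyseal replicates had too few *Thpo* UMIs for a comparison.

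As a share of all UMIs of a gene in kept cells, dpMSC-like cells held most of 5 factors: 89.5%, 89.3% and 83.7% of *Cxcl12*, 81.8%, 83.9% and 81.8% of *Kitl*, 90.8%, 87.4% and 82.6% of *Il7*, 83.5%, 87.5% and 78.1% of *Angpt1*, and 66.8%, 69.2% and 84.5% of *Vcam1*. These cells were 29.4%, 32.4% and 36.6% of all cells. The bmEC-like cells held 23.1%, 20.9% and 0.928% of *Vcam1*, and all endothelial cells 9.45%, 7.86% and 1.02% of *Kitl*. *Angpt2* was split, with 49.9%, 57.7% and 56.4% in dpMSC-like cells, 18.7%, 16.9% and 11.2% in OB-like cells and 4.90%, 6.85% and 4.25% in the few mural-like cells. Endothelial cells held 97.0%, 97.0% and 85.5% of *Tek* and 98.1%, 96.9% and 84.0% of *Tie1*. The bead depletion and the GFP sort set how many cells of each type entered a library, so these shares describe the libraries and not the bone.

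**Figure D2:**
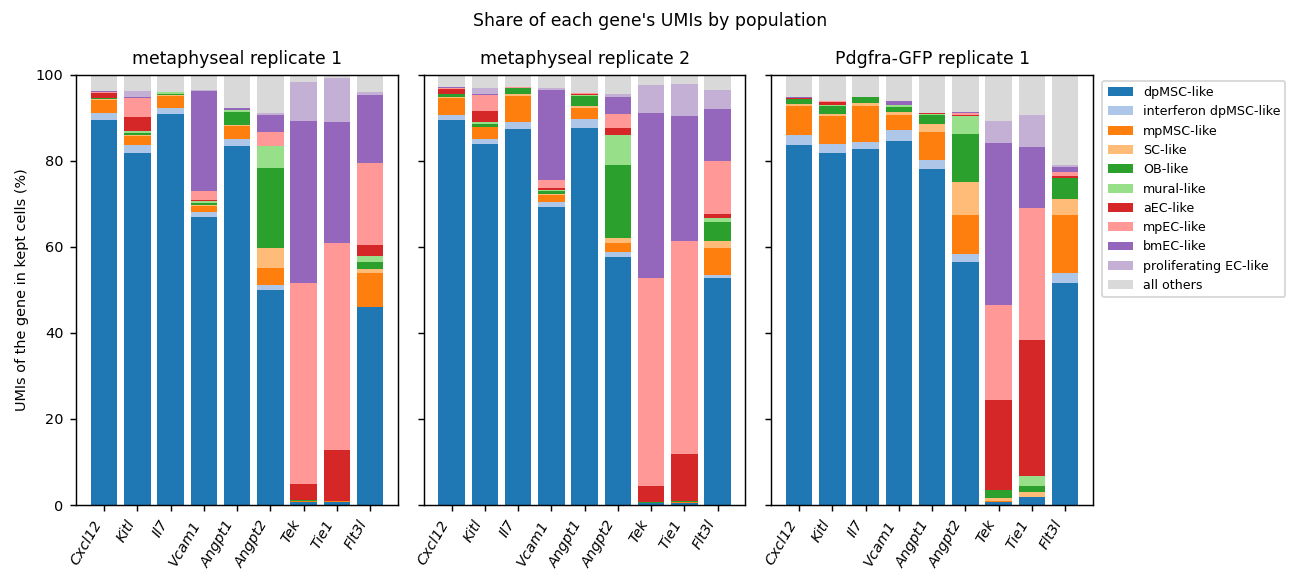
Share of the UMIs of 9 genes (percent of all UMIs of the gene in kept cells, y axis) by population, one panel per library; colours are populations and grey is all other cells. Blue, the dpMSC-like cells, fills at least 78.1% of the *Cxcl12*, *Kitl*, *Il7* and *Angpt1* bars in every library, while the *Tek* and *Tie1* bars are endothelial.

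UMIs of several factors were seen in the same dpMSC-like cells. *Cxcl12*, *Kitl* and *Vcam1* were seen together in 99.4%, 98.9% and 86.7% of them, these with *Il7* in 50.6%, 49.2% and 30.8%, and all 5 with *Angpt1* in 36.9%, 34.3% and 15.8%. In mpMSC-like cells *Cxcl12*, *Kitl* and *Vcam1* were seen together in 37.0%, 51.2% and 19.1% of cells. A UMI of each of these 3 genes alone was seen in between 27.3% and 83.8% of erythroid-like cells. The like ranges were 18.6% to 90.6% in neutrophil-like, 6.06% to 71.7% in B-lineage-like and 0% to 77.3% in macrophage-like cells. The part of free RNA in the cells with several factors was not tested. The dpMSC-like cells of the Pdgfra-GFP library were shallower, with a median of 3566 UMIs against 5618 and 5626, and the mpMSC-like cells deeper, at 9203, 9793 and 6374.

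Within the dpMSC-like cells the factors also varied between clusters. Of 8 clusters, cluster 2 (112, 104 and 605 cells), led by *Wif1*, an inhibitor of WNT ligands, and *Alpl*, an enzyme of matrix mineralisation, held 20403, 20327 and 19396 CPM of *Cxcl12*, 1142, 1199.5 and 533 CPM of *Kitl* and 1584, 1549 and 1136 CPM of *Vcam1*. Its *Vcam1* was below that of every other dpMSC-like cluster in each library. Its *Angpt2*, at 13.7, 17.9 and 15 CPM, was also the lowest. *Wif1* and *Kcnk2*, both among the leading genes of cluster 2, were markers used to name mpMSC-like cells, while all 6 dpMSC markers were raised in it. The part of mpMSC-like cells in its levels was not tested. Clusters 0 and 3, which shared *Ptn* and *Adh1* among their leading genes, held the most *Angpt2* in metaphyseal replicate 1 and the Pdgfra-GFP library, at 96.3 and 86.2 CPM and at 128 and 93.9 CPM, whereas in metaphyseal replicate 2 they held 71.8 and 45.6 CPM. *Il7* showed no such order and ranged from 68.0 to 202 CPM over clusters and libraries. Cluster 6, led by *Fabp4* and *Scd1* with *Kit* among its leading genes, had 191 cells in the Pdgfra-GFP library and 423 CPM of *Kitl*, the lowest there. Among the OB-like cells of the Pdgfra-GFP library, 1 cluster of 76 cells held 2691 CPM of *Cxcl12* against 189 to 243 CPM in the others, and its leading genes also included the dpMSC markers *Lpl*, *Hp* and *Adipoq*. The bmEC-like cells formed a cluster with 1363, 1230.0 and 918 CPM of *Vcam1* and another, seen in the metaphyseal replicates, with 2044 and 2190.4 CPM. The latter was led by *Rasgef1b* and *Lipg*, with *Zfp36*, *Cebpb*, *Sele* and *Fos* among its other leading genes. Clusters were made from the same cells, so these differences are a description.

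**Figure D3:**
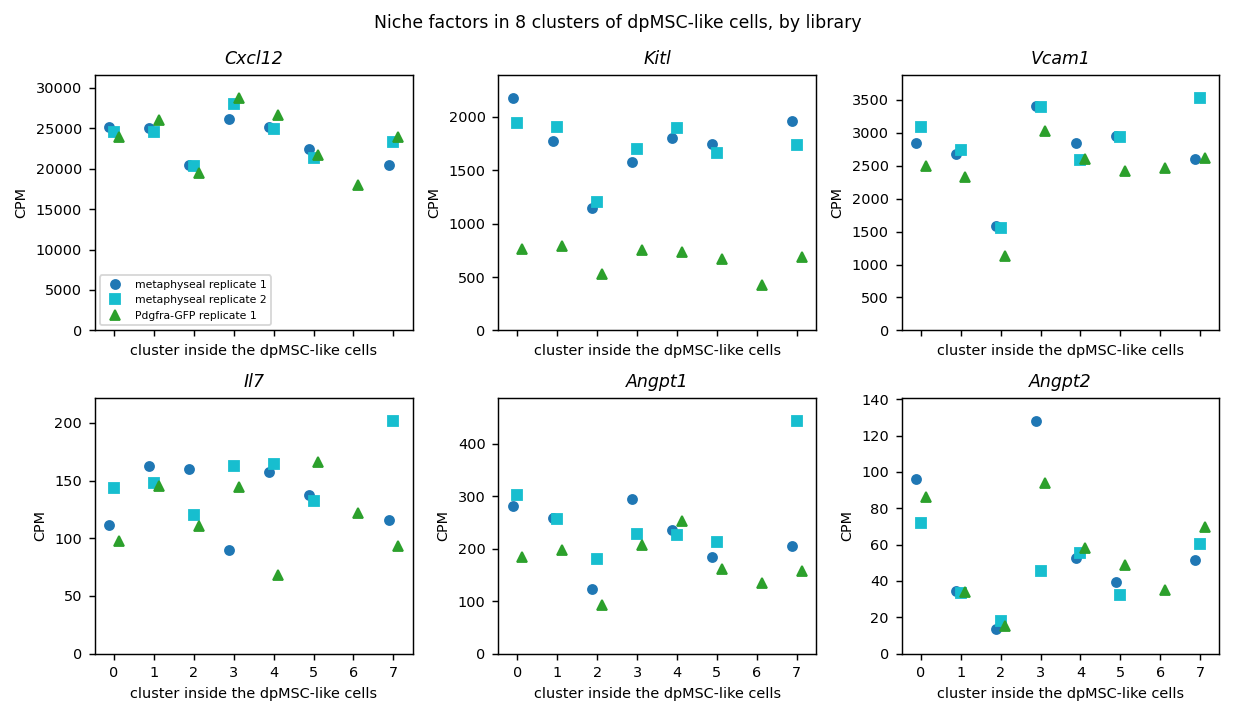
CPM (y axis, linear from 0) of 6 factors in 8 clusters of the dpMSC-like cells (x axis), with one symbol per library; cluster 7 holds the interferon-response cells and cluster 6 has a value for the Pdgfra-GFP library alone. Cluster 2 sits lowest for *Vcam1* and *Angpt2*, and the *Kitl* values of the Pdgfra-GFP library lie below those of both metaphyseal replicates in the other 7 clusters.

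Populations were compared on UMIs summed per library and population, with the library as a block, in edgeR's quasi-likelihood test over 12160 genes; a gene was called at an adjusted p under 0.05, and log2 fold changes are given with their standard errors. Since the populations were defined by clustering these same cells on 5000 variable genes, the share of all genes called is a background for the members and no result of its own. The dpMSC-like and mpMSC-like cells were named by markers within the same dissected tissue. Between them, 7 of the 9 members tested were higher in dpMSC-like cells and 0 lower, where 13.5% of all genes were called higher and 12.7% lower. The largest difference was that of *Vcam1* (log2 fold change 3.41 ± 0.53, adjusted p = 5.7e-06 by edgeR), followed by *Kitl* (2.84 ± 0.39), *Angpt1* (2.72 ± 0.24), *Cxcl12* (2.42 ± 0.70, adjusted p = 0.00922 by edgeR), *Il7* (2.29 ± 0.26), *Angpt2* (1.75 ± 0.27) and *Flt3l* (0.93 ± 0.35, adjusted p = 0.0428 by edgeR). *Tek* and *Tie1*, near 0 in both, were not called. All 7 were higher in each of the 3 libraries, but the calls of *Cxcl12* and *Flt3l* were the least firm. *Cxcl12* lost its call without metaphyseal replicate 1 (adjusted p = 0.073 by edgeR), without replicate 2 (0.0972) and with no replicate block (0.0886), and *Flt3l* without any single library (0.0604, 0.196 and 0.481 without metaphyseal replicate 1, replicate 2 and the Pdgfra-GFP library in turn).

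Against OB-like cells, dpMSC-like cells were higher in the same 7 members and lower in 0, where 27.7% of all genes were called higher and 27.3% lower. The log2 fold changes were 6.01 ± 0.83 for *Cxcl12*, 5.61 ± 0.59 for *Vcam1*, 5.49 ± 0.45 for *Kitl*, 5.31 ± 0.32 for *Il7*, 4.04 ± 0.25 for *Angpt1*, 2.64 ± 0.38 for *Flt3l* and 0.81 ± 0.24 for *Angpt2* (adjusted p = 0.0029 by edgeR, lost without the Pdgfra-GFP library at 0.083). The composition factors of OB-like sums were lower than those of dpMSC-like sums by 0.95 on the log2 scale, so ratios of CPM exceed these fitted values. In the comparison of mpMSC-like with OB-like cells, 6 members were higher and 1 lower, where 19% of all genes were called higher and 21.1% lower. *Cxcl12* was higher by 3.60 ± 0.74 log2, *Il7* by 3.01 ± 0.36, *Kitl* by 2.65 ± 0.41, *Vcam1* by 2.20 ± 0.53 (with at least 2000 genes per cell 1.32 ± 0.63, adjusted p = 0.108 by edgeR), *Flt3l* by 1.70 ± 0.44 and *Angpt1* by 1.32 ± 0.29. *Angpt2* was called lower (-0.94 ± 0.29, adjusted p = 0.00751 by edgeR), but its CPM ranges overlapped, the Pdgfra-GFP library went the other way, and the call was lost without metaphyseal replicate 1 (0.0789) or 2 (0.129). Its mean CPM was 12.5 in mpMSC-like and 14.7 in OB-like cells, while the composition factors differed by -0.87 log2 (OB-like minus mpMSC-like).

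Of the members, 1 was higher and 2 were lower in SC-like cells than in mpMSC-like cells, where 3.16% of all genes were called higher and 3.46% lower. *Angpt2* was higher (2.10 ± 0.33, adjusted p = 4.35e-06 by edgeR), in every library. The mural marker *Rgs5* was among the leading genes of the SC-like cluster, and *Angpt2* was highest in mural-like cells. Before the stroma was clustered again, a cluster named mural was led by *Mmp9* and *Rgs5*. The part of mural cells in the *Angpt2* difference was not tested. *Cxcl12* (-3.41 ± 0.75, adjusted p = 0.00287) and *Kitl* (-2.05 ± 0.49, adjusted p = 0.00651 by edgeR) were lower in each library, with calls that were lost without metaphyseal replicate 1 (0.0579 and 0.101) or 2 (0.21 and 0.201). Both calls were also lost with called doublets removed, where the log2 fold changes were -0.96 ± 0.77 and -0.56 ± 0.58 (adjusted p = 0.599 and 0.727 by edgeR). With the clusters drawn anew at a higher resolution, from 2000 variable genes or without integration, they were between -2.22 and -2.02 for *Cxcl12* and between -1.45 and -1.10 for *Kitl*, none of them called. With cells of at least 2000 genes they were 0.63 ± 0.89, the opposite sign, for *Cxcl12* and -0.19 ± 0.49 for *Kitl*.

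Endothelial cells, taken as the equal mean of aEC-like, mpEC-like and bmEC-like cells, were higher than dpMSC-like cells in 2 members and lower in 7, where 24.6% of all genes were called higher and 28.9% lower. The receptors *Tie1* (7.32 ± 0.52) and *Tek* (7.27 ± 0.47) were higher. *Angpt1* (-7.68 ± 0.28), *Cxcl12* (-6.28 ± 0.53), *Kitl* (-4.36 ± 0.30), *Vcam1* (-3.63 ± 0.37), *Angpt2* (-3.35 ± 0.26) and *Flt3l* (-1.28 ± 0.30) were lower, and so was *Il7*, for which no fold is given because the 3 endothelial subtypes together held 3 UMIs. All 9 calls were kept without any single library.

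Between endothelial subtypes, the members called and their directions differed by gene. aEC-like cells were higher than bmEC-like cells in 2 members and lower in 2, where 9.62% of all genes were called higher and 11.6% lower. *Kitl* (5.01 ± 0.53, adjusted p = 7.2e-09 by edgeR) and *Cxcl12* (3.57 ± 0.76, adjusted p = 5.5e-04) were higher, and *Vcam1* (-4.38 ± 0.58, adjusted p = 5.61e-07) and *Tek* (-1.54 ± 0.37, adjusted p = 0.0033 by edgeR) lower. *Cxcl12* lost its call without metaphyseal replicate 2 (0.0985), and *Tek* without replicate 1 (0.119) or 2 (0.083). mpEC-like cells were higher than bmEC-like cells in 1 member and lower in 1, where 5.19% of all genes were called higher and 6.15% lower. *Kitl* was higher (3.53 ± 0.54, adjusted p = 1.09e-05 by edgeR) and *Vcam1* lower (-3.88 ± 0.55, adjusted p = 3.26e-06), each in all 3 libraries and in every alternative. aEC-like cells were higher than mpEC-like cells in 2 members and lower in 1, where 5.13% of all genes were called higher and 5.86% lower. *Cxcl12* (4.13 ± 0.77, adjusted p = 2.34e-04 by edgeR) and *Kitl* (1.47 ± 0.40, adjusted p = 0.0123) were higher and *Tek* lower (-1.29 ± 0.37, adjusted p = 0.0242 by edgeR). Without metaphyseal replicate 1 the adjusted p was 0.202 for *Kitl* and 0.402 for *Tek*, and without replicate 2 it was 0.0699 for *Cxcl12*, 0.237 for *Kitl* and 0.369 for *Tek* (edgeR). The *Kitl* and *Tek* calls were also lost with called doublets removed (1.12 and -1) and at a higher resolution (1.08 and -0.98).

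Mural-like cells were higher than dpMSC-like cells in 2 members and lower in 5, where 6.35% of all genes were called higher and 10.2% lower. *Angpt2* was higher (1.66 ± 0.28, adjusted p = 6.45e-06 by edgeR) and kept its call without any single library. *Tie1* was called higher (3.57 ± 1.14, adjusted p = 0.031 by edgeR) on 16 UMIs, and lost the call without metaphyseal replicate 1 (0.0898) or the Pdgfra-GFP library (0.717). *Cxcl12* (-5.37 ± 0.82), *Il7* (-3.86 ± 0.53), *Angpt1* (-2.81 ± 0.38), *Kitl* (-2.67 ± 0.43) and *Vcam1* (-2.24 ± 0.53) were lower, *Vcam1* not without metaphyseal replicate 2 (adjusted p = 0.133 by edgeR). With cells gated one by one on marker UMIs in place of clusters, the calls of *Cxcl12* (-1.97) and *Angpt2* (0.61) were lost. Interferon-response dpMSC-like cells (12, 10 and 117 cells) gave no call in any member against the other dpMSC-like cells, where 0.477% of all genes were called higher and 0.156% lower. At an unadjusted p under 0.05, 0 of the 9 members passed either, and 0 were called by the DESeq2 Wald test; of all genes, 1454 of 12160 passed at that p by edgeR and 842 by DESeq2. Their *Cxcl12* was at 20417, 23285 and 23866 CPM and their *Vcam1* at 2602, 3531 and 2624 CPM.

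**Figure D4:**
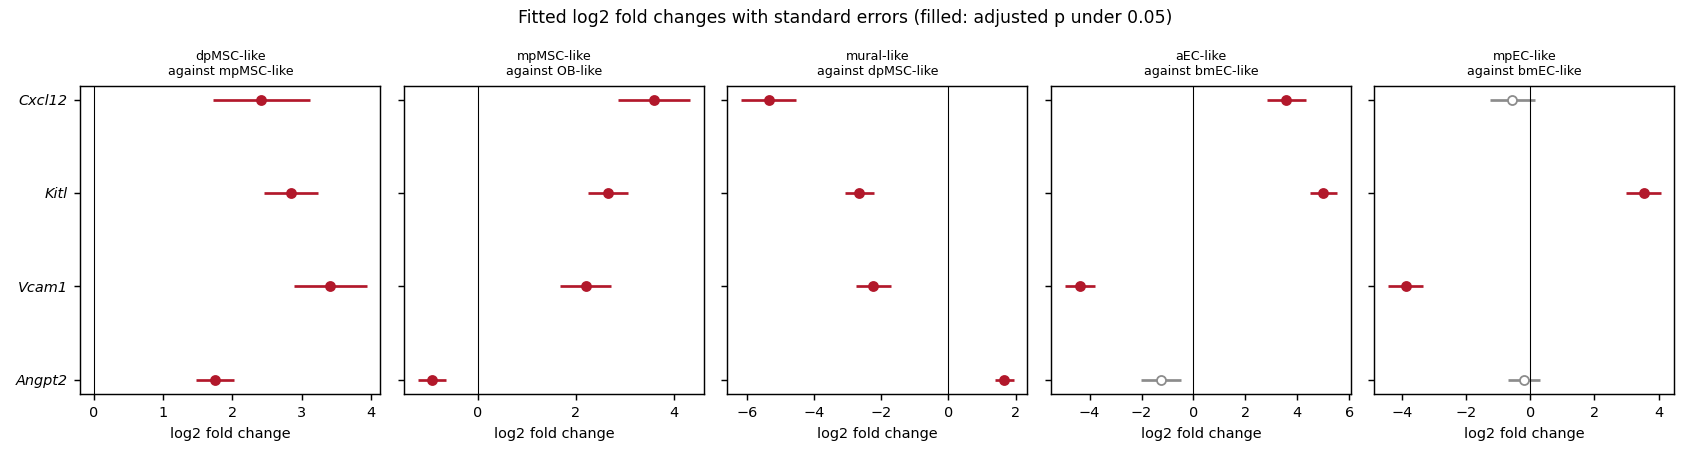
Fitted log2 fold changes (x axis) of *Cxcl12*, *Kitl*, *Vcam1* and *Angpt2* in 5 comparisons of populations; points are estimates, lines are 1 standard error to each side, and filled points passed an adjusted p under 0.05. *Vcam1* and *Kitl* lie on opposite sides of 0 in both endothelial comparisons with bmEC-like cells, and *Angpt2* alone of the 4 genes is to the right of 0 in mural-like against dpMSC-like cells.

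The receptors and partners of these factors were measured in the same cells, as lists of genes. Of 10 receptors of the niche factors, 8 were tested. In dpMSC-like against mpMSC-like cells 2 were higher, 1 lower and 5 neither, where 13.5% of all genes were called higher and 12.7% lower. The receptors' median log2 fold change was -0.79, against 0.03 over all genes. *Kit*, the receptor of Kit ligand, was higher (2.92 ± 0.61, adjusted p = 2.21e-04 by edgeR) at 2.24, 3.94 and 23.2 CPM, and CD117+ cells had been removed from the metaphyseal libraries alone. *Itga4*, a subunit of the VCAM1 receptor VLA-4, was lower (-2.80 ± 0.65, adjusted p = 6.7e-04 by edgeR) on few counts, at 0.249, 0 and 0.315 CPM against 2.26, 0 and 2.02 CPM. *Itgb1*, the other VLA-4 subunit and the receptor gene most often detected, was at 615, 633 and 321 against 387, 449 and 222 CPM (0.49 ± 0.18, adjusted p = 0.0306 by edgeR). In aEC-like against bmEC-like cells 3 receptors were higher, 1 lower and 4 neither (median 2.02 against -0.06), where 9.62% of all genes were called higher and 11.6% lower. *Cxcr4*, the signalling receptor of CXCL12, was at 66.9, 65.7 and 91.7 CPM in aEC-like cells and 0.426, 0.502 and 0 CPM in bmEC-like cells, and *Ackr3*, a scavenging receptor for CXCL12, at 61.8, 60.7 and 73.0 against 2.56, 7.53 and 6.64 CPM (3.64 ± 0.50, adjusted p = 5.53e-07 by edgeR). *Il2rg*, the common chain of the IL-7 receptor, was lower in aEC-like cells (-0.81 ± 0.25, adjusted p = 0.0128 by edgeR), at 45.0, 82.6 and 49.3 against 88.6, 102 and 113 CPM. The aEC-like cells were thus the endothelial subtype with the most *Cxcl12* and the most *Cxcr4* transcript in each library. *Ackr3* was also found in chondrocyte-like cells, at 225, 159 and 71.0 CPM. In the other comparisons between 0 and 3 receptors were higher and between 0 and 2 lower. The shares of all genes called are given above with each comparison, and these counts are not read as results.

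All 5 partners of the TIE pathway were tested. *Angpt4*, the third angiopoietin ligand of TIE2 in the mouse, was at 136, 132 and 57.2 CPM in dpMSC-like cells and 109, 157 and 114 CPM in mpMSC-like cells, where *Angpt1* was at most 36.2 CPM. It was at 2.13, 3.34 and 1.96 CPM in OB-like cells. Against OB-like cells *Angpt4* was higher in dpMSC-like cells by 4.42 ± 0.33 log2 and in mpMSC-like cells by 4.77 ± 0.34 (adjusted p = 2.04e-15 and 1.65e-15 by edgeR). *Svep1*, a matrix protein that binds TIE1, was at 234, 237 and 129 CPM in dpMSC-like cells, 52.0, 32.4 and 19.3 CPM in mpMSC-like cells and 95.0, 139 and 102 CPM in SC-like cells. It was higher in dpMSC-like than in mpMSC-like cells (2.57 ± 0.28) and also in SC-like against mpMSC-like cells (1.82 ± 0.32, adjusted p = 1.07e-04 by edgeR). *Ptprb*, the phosphatase that acts on TIE2, was endothelial, at 1028, 970.4 and 593 CPM in aEC-like cells. Between pairs of endothelial subtypes, 5.13% to 9.62% of all genes were called higher and 5.86% to 11.6% lower. Of the 5 partners, 0 were called by edgeR between any such pair. At an unadjusted p under 0.05, 1 passed, *Ptprb* in aEC-like against mpEC-like cells (adjusted p = 0.0756 in the edgeR fit). Of all 12160 genes, 2635 passed at that p in this pair by edgeR. In aEC-like against bmEC-like cells 3825 passed, and in mpEC-like against bmEC-like cells 2603. The partners' median log2 fold changes were 0.01, -0.58 and 0.56 (aEC-like against bmEC-like, mpEC-like against bmEC-like, aEC-like against mpEC-like).

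Of 16 other niche factors, 7 were higher in dpMSC-like than in mpMSC-like cells, 3 lower and 6 neither (median 1.06 against 0.03 over all genes). Of all genes, 13.5% were called higher and 12.7% lower. *Il34*, a ligand of the macrophage receptor CSF1R, was at 323, 317 and 409.6 CPM against 3.39, 15.6 and 7.02 CPM (5.73 ± 0.40), and *Bmp4* was higher by 4.70 ± 0.29 and the chemokine *Cxcl14* by 2.53 ± 0.45. *Spp1*, osteopontin, was lower (-3.47 ± 0.90, adjusted p = 0.00364 by edgeR), at 1901, 1634 and 3175 CPM against 24769, 15808 and 27072 CPM. Against OB-like cells 9 were higher in dpMSC-like cells and 2 lower, where 27.7% of all genes were called higher and 27.3% lower. In mpMSC-like against OB-like cells 6 were higher and 0 lower, where 19% of all genes were called higher and 21.1% lower. *Igf1* was among the higher factors in both (5.31 ± 0.47 and 5.0 ± 0.47). In aEC-like against bmEC-like cells 3 were higher and 5 lower, where 9.62% of all genes were called higher and 11.6% lower. In mpEC-like against bmEC-like cells 1 was higher and 6 lower, where 5.19% of all genes were called higher and 6.15% lower. The selectin *Selp*, which with VCAM1 lets leukocytes roll and adhere, was at 359, 377 and 274 CPM in bmEC-like cells and 41.9, 48.6 and 13.8 CPM in mpEC-like cells (-3.30 ± 0.27), and *Sele* was lower in mpEC-like cells by the same test (-3.71 ± 0.28). *Ptn*, a heparin-binding growth factor, was higher in mpEC-like cells (6.37 ± 0.50), at 302, 201 and 495 CPM against 1.28, 5.52 and 4.43 CPM.

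All 4 transcription factors known from CXCL12-abundant reticular cells, *Ebf1*, *Ebf3*, *Foxc1* and *Runx1*, were higher in dpMSC-like than in mpMSC-like cells (median 1.46 against 0.03 over all genes), in dpMSC-like than in OB-like cells (median 3.32 against 0.03) and in mpMSC-like than in OB-like cells (median 2.28 against -0.01). The shares of all genes called higher in these comparisons were 13.5%, 27.7% and 19%. *Ebf3* was at 629, 613 and 249 CPM in dpMSC-like cells and 124, 157 and 54.8 CPM in mpMSC-like cells (2.11 ± 0.26, adjusted p = 4.43e-08 by edgeR), and *Ebf1* at 1175, 1318 and 1297 against 600.3, 659 and 771 CPM (0.83 ± 0.30, adjusted p = 0.0422 by edgeR). Mural-like cells carried more *Ebf1* than dpMSC-like cells in each library, at 2178, 2135 and 1669.9 CPM, without passing the test, and were lower in the other 3.

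**Figure D5:**
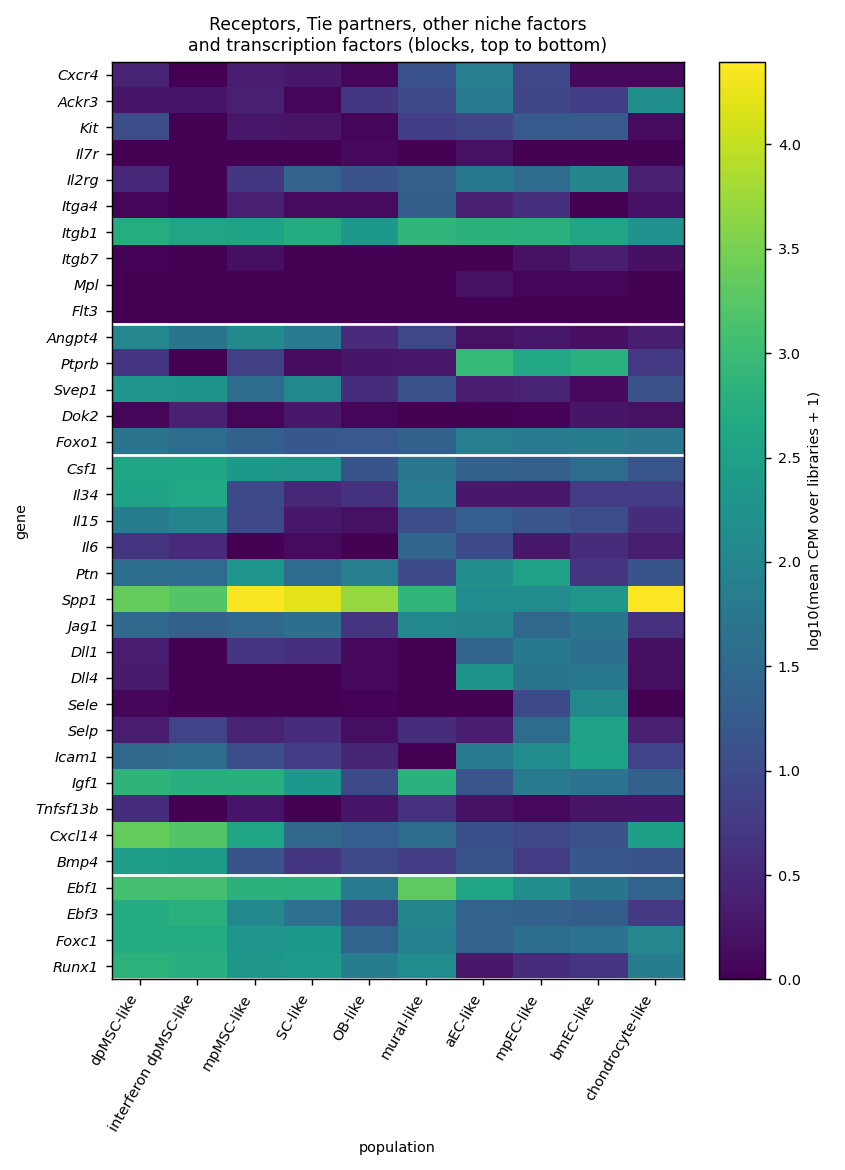
Log10 of the mean CPM over libraries plus 1 (colour scale) of 35 pathway genes (rows) in 10 populations (columns); white lines part the receptors, TIE partners, other niche factors and transcription factors. *Cxcr4* and *Ackr3* are brightest among endothelial columns in aEC-like cells, *Sele* and *Selp* in bmEC-like cells, and *Angpt4* and *Svep1* are stromal.

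The genes whose log2 levels followed a member most closely over the means of 17 populations are given as a description, since populations of one library share depth and free RNA. *Il7* and *Angpt1* were the nearest to each other (Pearson r = 0.973). *Cxcl12* was followed most closely by *Fbln5* (0.939), a protein of elastic fibres, *Gas6* (0.934) and *Kng1* (0.933), *Kitl* by *Esm1* (0.914), *Fstl1* (0.904) and *Ebf3* (0.904), and *Vcam1* by *Serpina3g* (0.904), *Spry1* (0.904) and *Gm4951* (0.893). *Angpt2* was followed by *Pla1a* (0.940) and *Ebf2* (0.935), *Tek* by *Rbfox3* (0.992), *Exoc3l2* (0.991) and *Gpihbp1* (0.991), and *Tie1* by *Sox18* (0.992), *Exoc3l* (0.991) and *Nova2* (0.988).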

How the data were processed

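Droplet RNA sequencing counts of 3 libraries of mouse bone cells were used. The authors trimmed reads with fastp 0.20, aligned and counted them with STARsolo of STAR 2.7.3a on mm10 with Gencode M23 and the GFP transgene, and deposited raw UMI counts for 55422 genes and all barcodes with no normalization. The counting settings were chosen to match the unfiltered output of Cell Ranger 3. Its exact version, the bcl2fastq version and the strand setting of the counting are not given in the sources used here. Gene positions come from Gencode M21, also on GRCm38.

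Cells were kept as in the study, with at least 1500 genes (metaphyseal) or 1000 genes (Pdgfra-GFP), at most 15% mitochondrial and 30% ribosomal counts, and genes seen in more than 10 cells; 15719 cells remained. EmptyDrops was not used here. Scrublet marked 25, 18 and 184 cells as doublets, which were kept. These were 1.05%, 0.895% and 1.63% of cells, below the 1.91%, 1.61% and 9.06% expected from cell numbers. Doublets may therefore remain where called doublets were removed. Libraries were integrated with Seurat 5.3.0 (5000 variable genes, 40 dimensions, without 45 member and pathway genes) and clustered on 30 components at resolution 0.6, then stroma (15 components, 0.4), endothelium (0.2), and dpMSC-like and OB-like cells (0.4). Clusters were named by 3 markers with CPM (10 added) at least 2 times their median over clusters and a UMI in 10% of cells (2 markers for endothelial subtypes), and a cluster carrying the whole list of another compartment stayed unnamed. The naming limits and the endothelial resolution were set after cluster names and cell numbers had been seen. No cluster met the late osteoblast markers, so that comparison was not run.

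Counts were summed per library and population of at least 10 cells (49 sums, 17 populations) and tested with edgeR 4.0.16 (TMM, quasi-likelihood, library as block, Benjamini-Hochberg adjustment over 12160 genes, threshold 0.05) in R 4.3.3. Populations of a library come from 1 suspension, which pairs the sums: deviations of dpMSC-like and mpMSC-like sums from their means correlated across 12160 genes at 0.393, 0.401 and 0.754 (metaphyseal replicates 1 and 2, Pdgfra-GFP). Intervals are exact Poisson or binomial at the 95% level and cover counting error only. Alternatives were DESeq2 1.42.0 (Wald test, size factors), no low-count filter, no block, the contrast's populations alone, each library left out, sums of at least 30 cells, cells thinned to 2000 UMIs, doublets removed, at least 2000 genes per cell, 2000 variable genes, resolutions raised by 0.2, no integration, cells gated one by one, and, added after seeing the data, mixed clusters left unnamed at a lower limit.

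All 10 members are named in each comparison where they were called; list genes are named as examples, mainly those with the largest change or most often detected, and not for each comparison and direction. Among the genes nearest to a member in pattern, 1 is not reported here. The members and gene lists were chosen with earlier results of these data known.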

Additional observations from a re-analysis of the deposited data

Results flagged for a closer look

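In 12 pairs of member and comparison the single Pdgfra-GFP library moved against both metaphyseal replicates, as log2 differences of CPM with 10 added; the difference between preparations was not tested. *Angpt2* in mpEC-like against bmEC-like cells was at 0.7 in the Pdgfra-GFP library and between -0.19 and -0.17 in the metaphyseal replicates, and *Angpt2* in mpMSC-like against OB-like cells at 0.35 and between -0.59 and -0.21, the one called pair of the 12. In SC-like against mpMSC-like cells *Angpt1* was at 0.48 (metaphyseal -1.17 to -0.31), *Vcam1* at 0.2 (-0.85 to -0.29), *Tie1* at 0.41 (-0.78 to -0.65) and *Tek* at 0.14 (-0.75 to -0.31); the metaphyseal replicates held 20 and 14 SC-like cells. *Vcam1* in aEC-like against mpEC-like cells was at 0.35 (-0.72 to -0.38).

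The others were close to 0 in the Pdgfra-GFP library. *Tie1* was at 0.1 in dpMSC-like against mpMSC-like cells (-0.42 to -0.06) and at -0.06 in mpMSC-like against OB-like cells (0.6 in both replicates), *Tek* at -0.03 in dpMSC-like against OB-like cells (0.13 to 0.26) and at -0.03 in mpMSC-like against OB-like cells (0.26 to 0.47), and *Kitl* at -0.02 in interferon-response against other dpMSC-like cells (0.01 to 0.23). Free RNA held *Tek* at 141 and 136 CPM in the metaphyseal replicates and 3.76 CPM in the Pdgfra-GFP library; its part in these *Tek* and *Tie1* differences was not tested.

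Cells outside the named populations also carried the members. A cluster with endothelial and stromal markers together (15, 13 and 26 cells) held *Cxcl12* at about 8560 CPM and *Tek* at about 95.4 CPM in the library where each was lowest. Whether these are pairs of cells in 1 droplet was not tested. A cluster of 338 Pdgfra-GFP cells led by *Thbs4*, *Tnmd* and *Prg4* held *Cxcl12* at 472 CPM and 12 of the 35 *Thpo* UMIs of that library, 6.06 CPM.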

How the results depend on the processing

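Of 49 called member results, 32 were called in every alternative that gave a value, and 17 lost the call in at least 1; of 41 results not called, 33 were called in no alternative and 28 changed sign in some. 1 called result reversed: *Cxcl12* in SC-like against mpMSC-like cells was at 0.63 log2 with at least 2000 genes per cell, and the cause was not tested. Besides the losses given with the comparisons, the edgeR calls of *Tek* in aEC-like cells were lost by the DESeq2 Wald test (adjusted p = 0.132 against bmEC-like and 0.472 against mpEC-like cells), and that of *Cxcl12* in aEC-like cells when only the populations of the contrast were fitted (0.225 and 0.134). Fewer sums entered that fit, and the reason for the lost calls was not tested. That setting also ended the calls of *Cxcl12* in mpMSC-like against OB-like cells (0.062) and in SC-like cells (0.166). The *Angpt2* call in mpMSC-like against OB-like cells (-0.64) and the *Tie1* call in mural-like cells (3.04) were lost with thinned cells, *Angpt2* in the former (-0.86) and *Tek* in aEC-like against bmEC-like cells (-0.98) with at least 2000 genes per cell, *Flt3l* in dpMSC-like against mpMSC-like cells (0.91) at a higher resolution, *Tek* in aEC-like against mpEC-like cells (-0.98) with 2000 variable genes, and *Kitl* in that comparison (1.30) with cells gated one by one. The replicate block is the pairing of populations within a library. With no replicate block the genes called fell to 1592 in dpMSC-like against mpMSC-like (main count 3184), 2889 in mpMSC-like against OB-like (4871), 349 in SC-like against mpMSC-like (805), 1532 in aEC-like against bmEC-like (2575), 648 in mpEC-like against bmEC-like (1379), 657 in aEC-like against mpEC-like (1337) and 26 in interferon-response against other dpMSC-like cells (77), and member calls lost were *Cxcl12* and *Flt3l* in the first comparison, *Angpt2* in both comparisons with OB-like cells, *Cxcl12* in SC-like cells, *Tek* and *Cxcl12* in aEC-like against bmEC-like, *Tek* and *Kitl* in aEC-like against mpEC-like and *Tie1* in mural-like cells.

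With cells thinned to 2000 UMIs the counts were 1787 (dpMSC-like against mpMSC-like), 3653 (dpMSC-like against OB-like), 2480 (mpMSC-like against OB-like), 423 (SC-like), 3844 (endothelial against dpMSC-like), 1309 (aEC-like against bmEC-like), 767 (mpEC-like against bmEC-like), 761 (aEC-like against mpEC-like) and 1016 (mural-like), where depth was lower by construction. With only the populations of the contrast they were 4828 (dpMSC-like against mpMSC-like), 2734 (mpEC-like against bmEC-like) and 152 (interferon-response). The mpEC-like against bmEC-like count was 2185 with 2000 variable genes and 2214 with doublets removed, and the interferon-response count 120 with no filter on low counts; the causes were not tested. Leaving out each library in turn gave 1979 to 2821 (dpMSC-like against mpMSC-like), 5204 to 6621 (dpMSC-like against OB-like), 3492 to 4083 (mpMSC-like against OB-like), 283 to 517 (SC-like), 5005 to 6798 (endothelial), 1427 to 2899 (aEC-like against bmEC-like), 577 to 2110 (mpEC-like against bmEC-like), 586 to 1689 (aEC-like against mpEC-like), 1219 to 1455 (mural-like) and 32 to 54 (interferon-response). DESeq2 size factors moved the split of calls in mural-like cells from 772 higher and 1237 lower to 1112 and 881, and in interferon-response cells from 58 and 19 to 90 and 2. The same size factors moved the median log2 fold change of all genes from -0.27 to -0.07 in mural-like and from -0.38 to -0.06 in interferon-response cells. The late osteoblast comparison could not be run in any setting, interferon-response cells formed no population in some clusterings or with cells gated one by one, and sums of at least 30 cells left no test for SC-like, mural-like and interferon-response cells. *Thpo* and *Flt3l* were scarce in every setting reported, and whether depth set this was not tested.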
